A study of Mus musculus with 6 samples.

Results

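The genes for the nuclear-encoded subunits of the mitochondrial respiratory chain and ATP synthase were examined in epididymal white adipose tissue (eWAT) of RFP KO-HFD mice and WT-HFD mice. They were taken from the deposited table by symbol: protein-coding genes named Nduf (a, b, c, s or v), Sdha to Sdhd, Uqcr, Cyc1, Cox4 to Cox8 or Atp5, with 60 or more counts summed over the 6 libraries. Of 40213 genes in the table, 100 had such a symbol and 95 of these reached the minimum. The 95 comprised 39 genes of complex I, 4 of complex II, 9 of complex III, 18 of complex IV, 17 of complex V (ATP synthase) and 8 complex I assembly factors, whose symbols (Ndufaf1 to Ndufaf8) also fit. Ndufa4 and its paralog Ndufa4l2 were counted with complex IV. The members with the fewest counts were Cox6a2, with 108 over the 6 libraries, and Ndufb4b, with 113, and the genes just under the minimum were Ndufab1-ps, with 59 counts, and Ndufs6b, with 39. Ndufb11b, Cox8c and Cox7b2, with 18, 14 and 2 counts, also stayed out.

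The groups were RFP KO-HFD, male mice labelled as lacking RFP (ret finger protein, the E3 ubiquitin ligase encoded by Trim27), and WT-HFD, wild-type male mice, with 3 mice and 3 libraries each. Mice of both groups were aged 8 to 10 weeks when a diet with 60% fat began, which they ate for 12 weeks. The knockout was made in the whole body, and poly(A) RNA of whole eWAT was sequenced, 1 library per mouse. No group on a normal diet belongs to these data. The study asked how loss of RFP changes gene expression in this tissue under a high-fat diet. In bulk tissue, fewer cells of a type and less RNA per cell cannot be told apart.

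The respiratory chain moves electrons from NADH (complex I) and succinate (complex II) through ubiquinone to complex III, and from there through cytochrome c to complex IV, which reduces oxygen. Complexes I, III and IV pump protons, and complex V uses the proton gradient to make ATP. Most subunits are encoded in the nucleus and imported, and the remaining ones, all in complexes I, III, IV and V, are encoded by mitochondrial DNA. In white fat the chain is less abundant than in brown fat or muscle, and it supports the ATP demand of lipid storage and release.

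The libraries differed in depth and in content, which touches every value given for these genes. With 4870239 counts, the library labelled RFP KO-HFD 1 was the shallowest (13309044 to 17215047 in the other 5), and it had counts for 10758 genes, against 16396 to 20278. Trim27 was at 19.7, 4.02 and 3.16 CPM of total (CPM is counts-per-million, here of the library total) in RFP KO-HFD 1, 2 and 3, against 25.3, 46.5 and 32.8 in WT-HFD 1, 2 and 3, so that the first of these libraries did not have the low level of the others of its label. In that library the 8 adipocyte markers summed to 0.0277% of counts, with Adipoq and Plin1 at 0 counts, against 2.01% and 2.53% in RFP KO-HFD 2 and 3 and 1.21% to 1.96% in WT-HFD. Its 8 hepatocyte markers summed to 2.52%, against 0.0603% and 0.112% in RFP KO-HFD 2 and 3 and 0.0101% to 0.0162% in WT-HFD. In WT-HFD 2 the 6 smooth muscle markers reached 2.29% of counts, against 0.00269% to 0.0694% in RFP KO-HFD and 0.114% and 0.124% in the other 2 WT-HFD libraries. In the same library the 6 epididymal epithelium markers reached 0.109%, against at most 0.000596% elsewhere. That sum was almost all Spink8 and Crisp1, at 602 and 488 CPM of total. The other markers of this list were at most 0.986 CPM of total there. Macrophage markers (5 genes) took 0.0202% to 0.0716% of counts in RFP KO-HFD and 0.0763% to 0.186% in WT-HFD, and mesothelium markers (4 genes) 0.000123% to 0.000603% and 0.00541% to 0.0114%. Brown and beige adipocyte markers (6 genes) took 0.0181%, 0.00210% and 0.00175% in RFP KO-HFD 1, 2 and 3, against 0.00123% to 0.00248% in WT-HFD. The high value in RFP KO-HFD 1 was mostly Elovl3, at 172 CPM of total there, and RFP KO-HFD 2 and 3 lay within the WT-HFD range. The part of these differences in the results for the respiratory chain genes was not tested, and fits without RFP KO-HFD 1 are given beside the main results. Its Trim27 level and its markers go against its label, so that the genotype and the tissue of this library are in question, and its name stands for the label only.

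No respiratory chain gene passed the test between RFP KO-HFD and WT-HFD after adjustment over all genes. Of the 95 genes, 57 had a higher and 38 a lower fitted level in RFP KO-HFD, with a median log2 fold change of 0.11, against -0.13 over all 14706 genes tested. All 95 passed the filter on low counts. The edgeR quasi-likelihood test called 0 of the 95 at an adjusted p under 0.05 (0% of all genes tested), and the smallest adjusted p among them was 0.781, of Cox6a2. At an unadjusted p under 0.05 the count was also 0 of 95, whereas over all genes tested 4.05% were higher and 2.7% lower. DESeq2 called 0 of the 95 at an adjusted p under 0.05 (3.32% of all genes tested), and at an unadjusted p under 0.05 it gave 2 members, both lower (5.64%). With limma-voom 2 members were also lower at an unadjusted p under 0.05 (5.43%). In 0 of the 95 genes were all 3 RFP KO-HFD libraries above all 3 WT-HFD libraries (7.28% of all genes tested), and in 4 they were all below (16% of all genes tested), namely Atp5mpl, Cox6a2, Ndufaf1 and Ndufb6. The median standard error of a log2 fold change was 0.495 over the 95 genes and 0.918 over all genes tested. That the test missed its threshold does not show that the groups had equal levels.

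RFP KO-HFD 1 often lay on the other side of the WT-HFD levels from RFP KO-HFD 2 and 3. Values per library below are TMM-normalised CPM, in the order of libraries 1, 2 and 3. RFP KO-HFD 1 had the lowest level of all 6 libraries for 66 of the 95 genes, and for 56.4% of all genes tested. RFP KO-HFD 3 had the highest level for 50 of the 95 genes, and for 20% of all genes tested. Its TMM factor was 0.683, against 0.986 to 1.16 in the other libraries, and a smaller factor raises every normalised CPM of a library. In 29 of the 95 genes RFP KO-HFD 2 and 3 were both above, and RFP KO-HFD 1 below, all 3 WT-HFD libraries (12.9% of all genes tested). The converse held for 3 genes, Cox7b, Ndufaf2 and Ndufb1 (6.81% of all genes tested). Cox4i1, Cox8a and Ndufs7, with values given below, were among the 29.

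**Figure D1:**
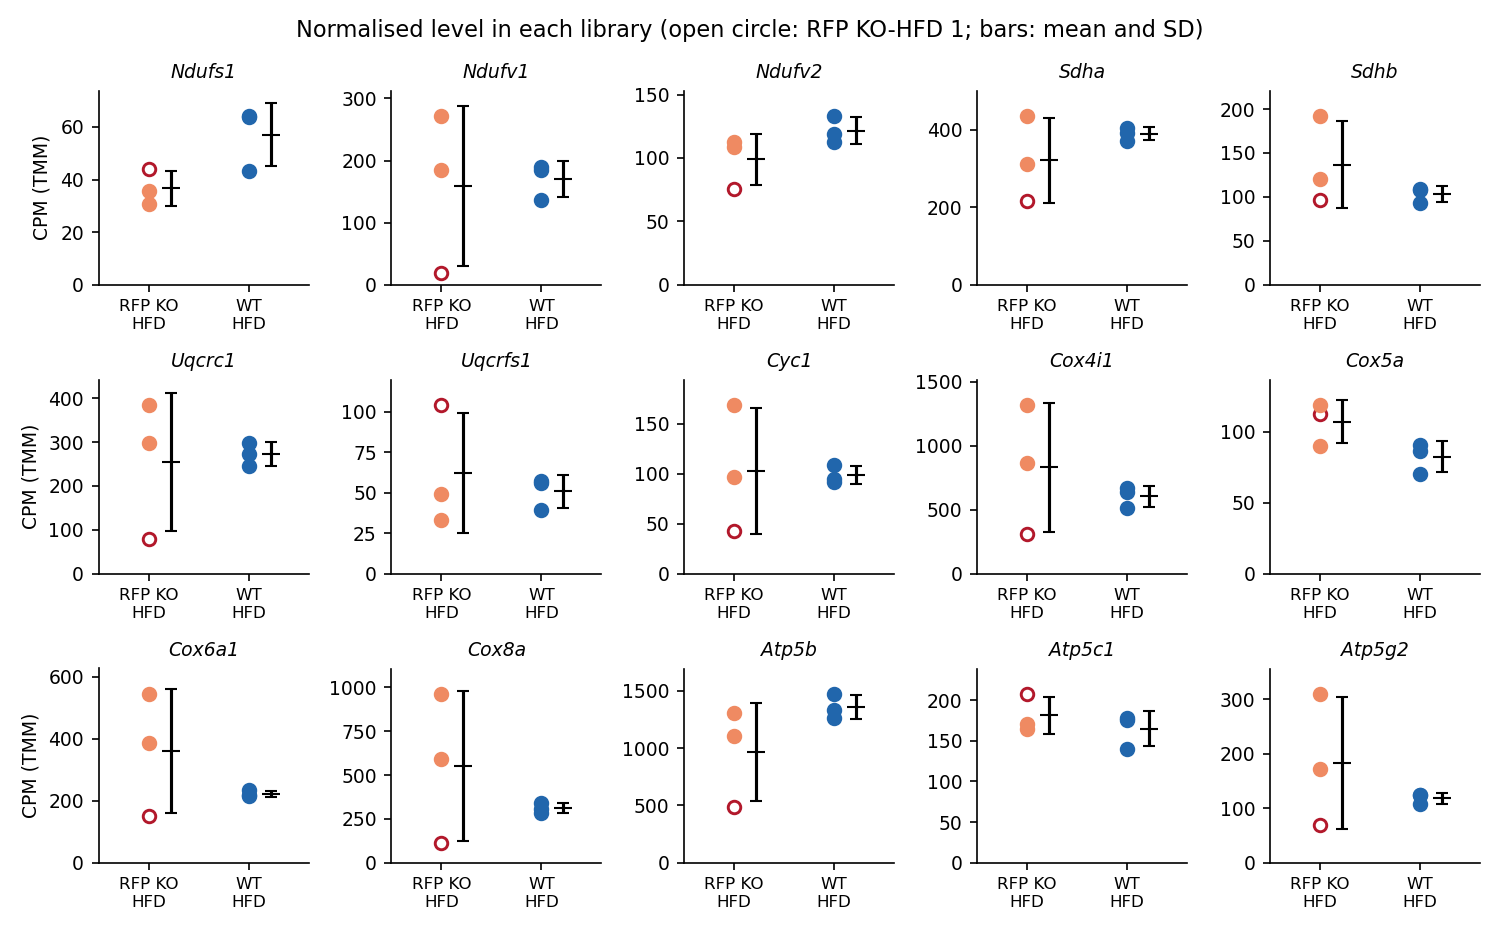
Normalised level (CPM, vertical axis from 0) of 15 subunit genes in each of the 3 RFP KO-HFD libraries (left; the open circle is RFP KO-HFD 1) and the 3 WT-HFD libraries (right), with the mean and SD of each group. RFP KO-HFD 1 lies below all WT-HFD points for Cox4i1 (309.7 CPM) and Cox8a (110.4 CPM), where the other 2 RFP KO-HFD libraries lie above them, and it lies above them for Uqcrfs1 and Atp5c1.

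Without RFP KO-HFD 1, an alternative in which the 2 remaining RFP KO-HFD libraries were set against the 3 WT-HFD libraries, 61 of the 95 genes were higher and 34 lower, with a median log2 fold change of 0.25, against -0.070 over 15606 genes. At an unadjusted p under 0.05, 22 of the 95 were higher, against 12.1% of all genes, and 7 were lower, against 12.6%. After adjustment none of the 95 passed (0.0128% of all genes did, 2 genes in all), and the smallest adjusted p was 0.0849, of Ndufa7. Both RFP KO-HFD 2 and 3 were above all WT-HFD libraries for 32 of the 95 genes (21.5% of all genes tested) and below them for 9 (24.7%). With RFP KO-HFD 1 and WT-HFD 2 both left out, 2 of the 95 genes passed, Atp5g1 and Ndufaf3, both higher (3.35% of all genes). In limma-voom with a quality weight per library, 7 members passed as higher (4.17% of all genes), among them Ndufs7, Ndufa3, Ndufa7, Cox6a1, Cox8a and Atp5g1, and 1 as lower (3.03%), Ndufs1, whereas limma-voom without weights gave 0 calls among the 95. At an unadjusted p under 0.05 the weighted fit gave 28 higher members (12.7% of all genes) and 10 lower (15.3%), and the fit without RFP KO-HFD 1 and WT-HFD 2 gave 25 higher (14.7%) and 9 lower (17%).

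The scaling of the libraries set how high the genes stood as a whole. With library totals in place of TMM factors the median log2 fold change of the 95 genes was -0.30 and that of all genes tested was -0.50. The median of the 95 genes minus that of all genes was 0.25 with TMM factors, 0.21 with library totals, and between 0.0523 and 0.402 over all alternatives. A direction of a single gene below is therefore one relative to TMM scaling.

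**Figure D2:**
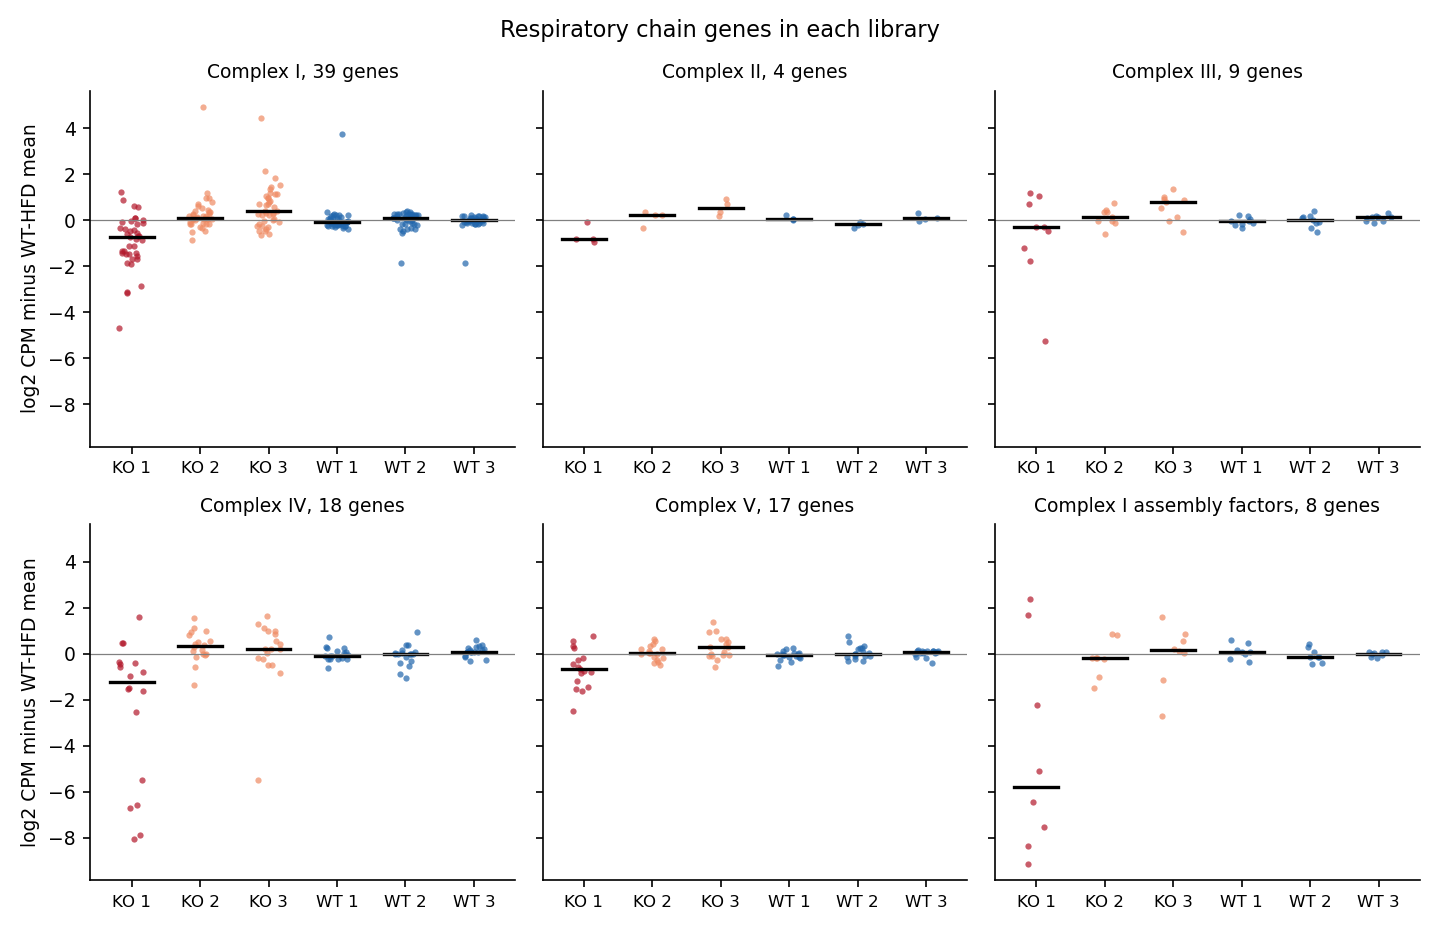
Each point is 1 gene in 1 library, as its log2 CPM minus the mean log2 CPM of the 3 WT-HFD libraries; panels are complexes I to V and the complex I assembly factors, libraries run from RFP KO-HFD 1 to WT-HFD 3, and black lines are medians. RFP KO-HFD 1 had a median below 0 in all 6 panels, lowest in the assembly factors, at -5.78. In that library 4 of the 8 assembly factors had no count and Ndufaf8 had 1. Their median there is thus set by the prior count and does not measure the size of a difference. The 8 factors summed to 67.7 CPM in RFP KO-HFD 1, against 89.7, 92.8 and 84.6 CPM in WT-HFD. In RFP KO-HFD 3 the median was above 0 in all 6 panels.

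The levels in RFP KO-HFD 1, 2 and 3 varied with the G+C content of the coding sequence. Coding sequences were available for 90 of the 95 genes, with a G+C content of 42.9% to 67.6%. When these were split into 3 equal bands of G+C, 17 of the 29 genes that stood high in RFP KO-HFD 2 and 3 and low in RFP KO-HFD 1 were in the highest band, 10 in the middle and 2 in the lowest. The genes outside the respiratory chain with that pattern were not split in this way. The 4 stretches printed here come from genes of the highest and the lowest band. Uqcrb has the lowest G+C of the 90 genes, and the others lie inside the range. Cox8a and Ndufs7 are G+C-rich and Cox7b and Uqcrb are poorer in G and C (Ndufs7, Cox7b and Uqcrb were chosen after their values were seen). They are GENCODE M21 coding sequences (GRCm38), read from the start codon, with G and C in capitals; Cox8a and Cox7b are whole except for the stop codon, and Ndufs7 and Uqcrb are the first 120 bases.
Cox8a: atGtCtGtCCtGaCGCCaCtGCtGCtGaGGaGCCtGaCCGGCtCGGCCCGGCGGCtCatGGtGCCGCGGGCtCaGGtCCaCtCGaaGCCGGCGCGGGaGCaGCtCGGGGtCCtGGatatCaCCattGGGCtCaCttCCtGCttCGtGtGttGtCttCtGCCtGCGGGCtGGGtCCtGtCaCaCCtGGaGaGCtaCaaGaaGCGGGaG
Ndufs7: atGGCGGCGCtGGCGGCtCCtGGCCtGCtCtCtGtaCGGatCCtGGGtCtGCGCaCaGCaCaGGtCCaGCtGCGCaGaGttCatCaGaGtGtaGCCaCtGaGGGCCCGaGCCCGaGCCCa
Cox7b: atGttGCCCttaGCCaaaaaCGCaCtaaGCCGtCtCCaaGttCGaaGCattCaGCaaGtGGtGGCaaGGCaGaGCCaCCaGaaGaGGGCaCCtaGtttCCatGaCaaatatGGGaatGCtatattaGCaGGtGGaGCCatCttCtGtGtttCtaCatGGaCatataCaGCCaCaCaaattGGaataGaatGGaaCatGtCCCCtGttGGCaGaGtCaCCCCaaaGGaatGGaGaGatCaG
Uqcrb: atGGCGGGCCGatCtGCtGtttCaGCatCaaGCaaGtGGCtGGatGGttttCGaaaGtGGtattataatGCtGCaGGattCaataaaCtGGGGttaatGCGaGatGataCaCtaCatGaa

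Cox8a, a small structural subunit of complex IV (chromosome 19, 7192523 to 7194981, minus strand, in the GRCm39 coordinates of the table), has 135 G or C in its 207 coding bases, or 65.2%. It had 110.4, 590.2 and 964 CPM in the RFP KO-HFD libraries, against 284, 307 and 341 CPM in the WT-HFD libraries. Ndufs7, a core iron-sulfur subunit of complex I (chromosome 10, 80084939 to 80092628, plus strand), had 34.0, 194 and 379 CPM in the RFP KO-HFD libraries, against 66.6, 114 and 83.9 CPM in the WT-HFD libraries. Both genes were lowest in RFP KO-HFD 1 and highest in RFP KO-HFD 3, with RFP KO-HFD 2 also above every WT-HFD library. Cox7b, another small subunit of complex IV (chromosome X, 105059306 to 105066056, plus strand), is 47.5% G+C and had 202, 44.7 and 37.0 CPM in the RFP KO-HFD libraries, against 79.4, 53.6 and 70.8 CPM in the WT-HFD libraries. Uqcrb, the ubiquinone-binding protein of complex III (chromosome 13, 67048640 to 67053414, minus strand), is 42.9% G+C and had 105, 44.0 and 31.8 CPM in the RFP KO-HFD libraries, against 52.9, 32.5 and 56.2 CPM in the WT-HFD libraries. These 2 genes had the order turned round for RFP KO-HFD 1, which stood above all other libraries. None of the 4 passed the edgeR test with 6 libraries (adjusted p = 0.911, 0.871, 0.952 and 0.955).

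Over all 90 genes the bands differed in degree. In the 30 genes of highest G+C (55.7% to 67.6%) the median deviation from the WT-HFD mean was -1.45, 0.42 and 0.90 log2 CPM in RFP KO-HFD 1, 2 and 3, and 28 of 30 genes were above the WT-HFD mean in each of the last 2 libraries but 2 of 30 in the first. In the 30 genes of lowest G+C (42.9% to 51.0%) the medians were -0.35, -0.15 and -0.0081, and the genes above the WT-HFD mean numbered 11, 6 and 15 of 30. The lowest band as a whole was thus not raised in RFP KO-HFD 1, unlike Cox7b and Uqcrb. The middle band had medians of -0.84, 0.16 and 0.40. The 3 WT-HFD libraries also differed by band, at -0.20, 0.17 and 0.053 in the highest band and 0.072, -0.13 and 0.047 in the lowest. Spearman's rho between coding G+C and the deviation over the 90 genes was -0.39, 0.63 and 0.63 in RFP KO-HFD 1, 2 and 3, and -0.53, 0.37 and 0.032 in WT-HFD 1, 2 and 3. These are descriptions: the genes of 1 library share its depth, its scaling and its preparation.

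The genes outside the respiratory chain showed the same order with smaller steps in RFP KO-HFD 2 and 3. Over 13286 tested genes with a coding sequence (90.3% of those tested) rho was -0.19, 0.28 and 0.17 in RFP KO-HFD 1, 2 and 3, and -0.29, 0.26 and -0.14 in WT-HFD 1, 2 and 3. In the highest band the median of the other genes was -2.31, 0.17 and 0.090 in RFP KO-HFD 1, 2 and 3. When RFP KO-HFD 1 was left out, the respiratory chain genes had median log2 fold changes of 0.68 in the highest, 0.33 in the middle and -0.081 in the lowest band, against 0.14, -0.060 and -0.35 for the other genes of the same bands. Of the 22 members with an unadjusted p under 0.05 and a higher level in that fit, 14 were in the highest band, 6 in the middle and 2 in the lowest, and 6 of the 7 lower ones were in the lowest band, the other one having no coding sequence. Each band held 30 members. Among the other genes, 823 of 4795 in the highest, 381 of 3248 in the middle and 311 of 5153 in the lowest band were higher at that p. In the same order, 387, 373 and 1037 of the other genes were lower, so the lowest band held most of the lower genes outside the members too. The part of base composition in these results was not tested.

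**Figure D3:**
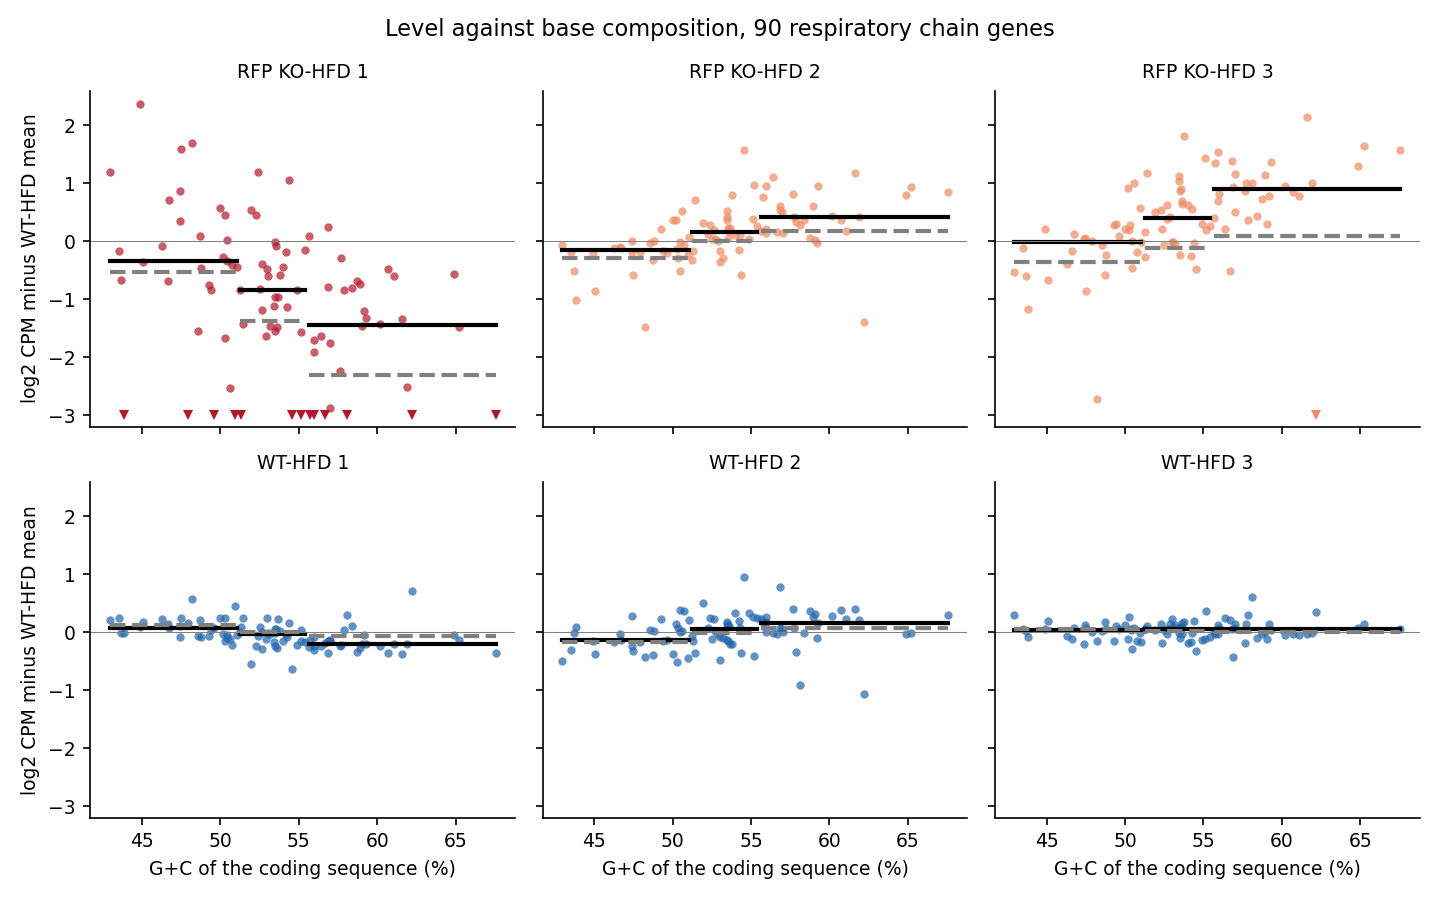
Deviation of each of 90 respiratory chain genes from the WT-HFD mean (log2 CPM, vertical axis) against the G+C content of its coding sequence (percent, horizontal axis), 1 panel per library, RFP KO-HFD above and WT-HFD below; triangles at -3 stand for lower values. Black lines are the medians of the genes in each band of G+C and dashed grey lines those of the other genes tested. The black lines step down to -1.45 in RFP KO-HFD 1 and up to 0.42 and 0.90 in RFP KO-HFD 2 and 3.

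Complex I, the entry point of electrons from NADH, had 39 genes: 7 core subunits that carry the flavin, iron-sulfur clusters and quinone site, 30 accessory subunits and 2 paralogs of Ndufb4. Of the 39, 22 were higher and 17 lower in RFP KO-HFD, with a median log2 fold change of 0.040 and no call. The summed level was 2090, 4231 and 6005 CPM in the RFP KO-HFD libraries, against 3321, 3813 and 3578 CPM in the WT-HFD libraries, so the RFP KO-HFD libraries lay on both sides of WT-HFD. Among the core subunits, Ndufv1, which binds NADH and flavin, had 18.6, 185 and 272 CPM in the RFP KO-HFD libraries, against 137, 190.0 and 184 CPM in the WT-HFD libraries. RFP KO-HFD 1 was far below every other library, and the other 2 RFP KO-HFD libraries overlapped with WT-HFD. Ndufv2, its iron-sulfur partner, had 75.4, 113 and 108 CPM in the RFP KO-HFD libraries, against 133, 119 and 112 CPM in the WT-HFD libraries. Its groups overlapped by a small margin, between RFP KO-HFD 2 and WT-HFD 3.

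Ndufs1, the largest iron-sulfur subunit, was among the 17 genes of the complex with a lower fitted level in RFP KO-HFD. It had 43.9, 30.8 and 35.5 CPM in the RFP KO-HFD libraries, against 63.8, 43.3 and 64.2 CPM in the WT-HFD libraries. Its groups overlapped only through RFP KO-HFD 1, at 43.9 CPM, and WT-HFD 2, at 43.3 CPM, and the difference did not pass (log2 fold change -0.64 ± 0.355 (SE), edgeR adjusted p = 0.815). With that library left out it was -0.80 ± 0.251 (edgeR adjusted p = 0.143). Ndufs1 has a coding G+C of 45.1%, in the lowest band.

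Among the accessory subunits, Ndufa1 was higher in RFP KO-HFD 1 than elsewhere, with 76.2, 40.2 and 38.4 CPM in the RFP KO-HFD libraries, against 31.7, 39.2 and 29.3 CPM in the WT-HFD libraries (log2 fold change 0.63 ± 0.413 (SE), edgeR adjusted p = 0.865, and 0.22 on the log2 scale with that library left out). Ndufb6 had 4.04, 32.3 and 29.7 CPM in the RFP KO-HFD libraries, against 38.5, 32.5 and 37.6 CPM in the WT-HFD libraries, so that all 3 RFP KO-HFD libraries were below WT-HFD, by little in 2 of them and by much in RFP KO-HFD 1 (log2 fold change -0.71 ± 0.740 (SE), edgeR adjusted p = 0.928, and -0.24 on the log2 scale with that library left out). Ndufv3, with the highest mean CPM of the complex I genes, had 71.0, 269 and 407 CPM in the RFP KO-HFD libraries, against 218, 231 and 244 CPM in the WT-HFD libraries. Ndufa3 and Ndufa7, chosen after their values were seen, had 122.9 and 185 CPM (Ndufa3) and 131 and 175 CPM (Ndufa7) in RFP KO-HFD 2 and 3, against 54.1 to 76.6 and 59.0 to 76.2 CPM in WT-HFD. Without RFP KO-HFD 1 they had the smallest p of the complex in the higher direction together with Ndufs7 (edgeR adjusted p = 0.0935, 0.0849 and 0.0945).

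The 8 complex I assembly factors summed to 67.7, 91.8 and 107 CPM in RFP KO-HFD and 89.7, 92.8 and 84.6 CPM in WT-HFD. These factors build complex I and are not part of the finished enzyme. Ndufaf1 had 0, 10.2 and 9.14 CPM in the RFP KO-HFD libraries, against 20.4, 21.9 and 19.5 CPM in the WT-HFD libraries, below every WT-HFD value in all 3 RFP KO-HFD libraries (log2 fold change -1.66 ± 1.34 (SE), edgeR adjusted p = 0.904). Without RFP KO-HFD 1 its log2 fold change was -1.10 ± 0.218 (edgeR adjusted p = 0.0883). Ndufaf4 had 36.2, 6.07 and 8.15 CPM in the RFP KO-HFD libraries, against 7.44, 6.32 and 7.31 CPM in the WT-HFD libraries, a high value in RFP KO-HFD 1 alone (log2 fold change 1.25 ± 0.843 (SE), edgeR adjusted p = 0.872). Without that library its log2 fold change was 0.00034 ± 0.319 (edgeR adjusted p = 0.9996).

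Ndufaf8 had 0.202, 14.9 and 24.7 CPM in the RFP KO-HFD libraries, against 6.46, 10.2 and 8.62 CPM in the WT-HFD libraries, and Ndufaf3, with the highest mean CPM of the 8, had 4.65, 38.8 and 40.1 CPM in the RFP KO-HFD libraries, against 18.8, 29.1 and 19.4 CPM in the WT-HFD libraries. In both genes RFP KO-HFD 2 and 3 were above, and RFP KO-HFD 1 below, all WT-HFD values. Ndufaf5, Ndufaf6 and Ndufaf7 had no count in RFP KO-HFD 1 and overlapping levels in the other 5 libraries, for example 5.92 and 6.83 CPM of Ndufaf5 in RFP KO-HFD 2 and 3, against 7.55, 6.03 and 6.84 CPM in WT-HFD.

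Complex II, succinate dehydrogenase, is shared by the citrate cycle and the chain and has no mitochondrially encoded subunit. Sdha, its flavoprotein, had 217, 311 and 436 CPM in the RFP KO-HFD libraries, against 392, 372 and 405 CPM in the WT-HFD libraries (log2 fold change -0.28 ± 0.394 (SE), edgeR adjusted p = 0.949, and -0.077 on the log2 scale without RFP KO-HFD 1). Sdhb, the iron-sulfur subunit, had 97.0, 120.3 and 192 CPM in the RFP KO-HFD libraries, against 108, 93.0 and 109.5 CPM in the WT-HFD libraries (log2 fold change 0.40 ± 0.377 (SE), edgeR adjusted p = 0.921). Sdhc and Sdhd anchor the enzyme in the membrane. Sdhc had 50.7, 117 and 160.1 CPM in the RFP KO-HFD libraries, against 117, 86.5 and 97.4 CPM in the WT-HFD libraries, and Sdhd had 29.5, 66.5 and 68.1 CPM in the RFP KO-HFD libraries, against 54.7, 41.7 and 64.7 CPM in the WT-HFD libraries. For Sdhb, Sdhc and Sdhd, RFP KO-HFD 2 and 3 were above all WT-HFD values, while Sdha overlapped, and for Sdha, Sdhc and Sdhd RFP KO-HFD 1 was the lowest of the 6 libraries. None of the 4 passed with or without RFP KO-HFD 1 (smallest edgeR adjusted p without it 0.222).

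Complex III passes electrons from ubiquinol to cytochrome c. Of its 9 genes, 8 were higher in RFP KO-HFD, with a median log2 fold change of 0.31 and no call. Leaving out RFP KO-HFD 1, 6 of 9 were higher, with a median of 0.41. Cyc1, which carries the haem of cytochrome c1, had 42.7, 96.4 and 169 CPM in the RFP KO-HFD libraries, against 95.1, 92.2 and 109 CPM in the WT-HFD libraries. Uqcrfs1, the Rieske iron-sulfur protein, had 104, 33.4 and 49.3 CPM in the RFP KO-HFD libraries, against 56.1, 39.3 and 57.3 CPM in the WT-HFD libraries. The 2 catalytic subunits thus differed in RFP KO-HFD 1, which was the lowest library for Cyc1 and the highest for Uqcrfs1, and neither passed (edgeR adjusted p = 0.996 and 0.958).

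The core proteins showed the same contrast. Uqcrc1 had 80.1, 298 and 385 CPM in the RFP KO-HFD libraries, against 245, 273 and 299 CPM in the WT-HFD libraries, and Uqcrc2 had 103.3, 57.93 and 68.17 CPM in the RFP KO-HFD libraries, against 65.997, 57.09 and 66.003 CPM in the WT-HFD libraries. Uqcrc1, at 57.0% coding G+C, was lowest in RFP KO-HFD 1, and Uqcrc2, at 46.7%, was highest there. Uqcrq, with the highest mean CPM of the complex, had 206, 338 and 509 CPM in the RFP KO-HFD libraries, against 218, 266 and 278 CPM in the WT-HFD libraries (log2 fold change 0.47 ± 0.436 (SE), edgeR adjusted p = 0.919). Uqcrh, the hinge protein, had 186, 293 and 427 CPM in the RFP KO-HFD libraries, against 220.3, 249.8 and 209 CPM in the WT-HFD libraries (log2 fold change 0.42 ± 0.414 (SE), edgeR adjusted p = 0.925). Uqcr10, chosen after its values were seen, had 2.43 CPM in RFP KO-HFD 1, and 160.5 and 243 CPM in RFP KO-HFD 2 and 3, against 86.4, 107 and 92.9 CPM in WT-HFD.

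Complex IV, cytochrome c oxidase, had 18 genes, of which 10 encode the general isoforms of its nuclear subunits. Of all 18, 12 were higher and 6 lower in RFP KO-HFD, with a median log2 fold change of 0.14 and no call. Of the 10 general isoforms, 9 were higher in RFP KO-HFD, with a median log2 fold change of 0.32. Without RFP KO-HFD 1, 7 of these 10 were higher, with a median of 0.51. Cox4i1, with the highest mean CPM of the complex, encodes the subunit through which ATP regulates the enzyme. It had 309.7, 864 and 1318 CPM in the RFP KO-HFD libraries, against 513, 667 and 635 CPM in the WT-HFD libraries. Its means were 831 ± 505 CPM in RFP KO-HFD and 605 ± 81.4 CPM in WT-HFD (SD, n = 3 each) (log2 fold change 0.46 ± 0.582 (SE), edgeR adjusted p = 0.945). Cox6a1 had 149.8, 386 and 544 CPM in the RFP KO-HFD libraries, against 215, 219 and 234 CPM in the WT-HFD libraries, the smallest p of the complex in the higher direction (log2 fold change 0.69 ± 0.518 (SE), edgeR adjusted p = 0.888). Without RFP KO-HFD 1 its log2 fold change was 1.05 ± 0.220 (edgeR adjusted p = 0.0945), and in limma-voom with quality weights it passed at an adjusted p of 0.0355.

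Cox5a did not have a low value in RFP KO-HFD 1: it had 113, 89.8 and 119 CPM in the RFP KO-HFD libraries, against 69.9, 86.7 and 90.9 CPM in the WT-HFD libraries (log2 fold change 0.38 ± 0.318 (SE), edgeR adjusted p = 0.909). Cox5b had 151, 339 and 357 CPM in the RFP KO-HFD libraries, against 286, 262 and 246 CPM in the WT-HFD libraries. Cox6b1 had 51.4, 199 and 274 CPM in the RFP KO-HFD libraries, against 156, 136 and 159.7 CPM in the WT-HFD libraries. All 3 genes encode structural subunits, and in Cox5b and Cox6b1 RFP KO-HFD 1 was the lowest library and the other 2 the highest, by 1.32 and 1.57 times the WT-HFD mean on average. Ndufa4, first assigned to complex I and later to complex IV, had 71.8, 98.4 and 83.1 CPM in the RFP KO-HFD libraries, against 93.6, 99.9 and 102 CPM in the WT-HFD libraries and was lower on average in RFP KO-HFD without passing (log2 fold change -0.22 ± 0.308 (SE), edgeR adjusted p = 0.948). Cox7a2l, which helps to join complexes III and IV, had 169.6, 214 and 198 CPM in the RFP KO-HFD libraries, against 193, 289 and 202 CPM in the WT-HFD libraries, with overlapping groups.

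Isoforms of complex IV that mark other tissues were minor in these libraries, as set out per kilobase of transcript so that 2 genes can be compared. Cox8b, Cox7a1 and Cox6a2 are heart and muscle isoforms, and Cox8b and Cox7a1 are also prominent in brown fat. In the libraries other than RFP KO-HFD 1, Cox8b made 2.94% and 2.96% of Cox8a and Cox8b together in RFP KO-HFD 2 and 3, against 5.98%, 2.49% and 6.14% in WT-HFD. Cox7a1 made 4.72% and 2.17% of Cox7a1 and Cox7a2 together in RFP KO-HFD 2 and 3, against 5.72%, 5.75% and 6.52% in WT-HFD. The share of Cox7a1 was thus lower in both of these RFP KO-HFD libraries, where the level of Cox7a1 itself (4.24 and 2.64 CPM, against 3.34, 3.70 and 4.39 CPM in WT-HFD) overlapped and that of Cox7a2 (144 CPM in the lower of the 2, against 92.3, 102 and 105 CPM in WT-HFD) did not.

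Cox6a2 had 8 counts in RFP KO-HFD 2 and none in RFP KO-HFD 1 and 3, against 48, 13 and 39 counts in WT-HFD. A count of 0 allows up to 0.616 CPM of total in RFP KO-HFD 1 and 0.225 in RFP KO-HFD 3 (3 counts, counting error only). All 3 RFP KO-HFD values were below the WT-HFD values, and Cox6a2 had the smallest p of the 95 genes (log2 fold change -2.96 ± 1.48 (SE), edgeR adjusted p = 0.781). The 8 skeletal muscle markers were at 0.00415%, 0.00914% and 0.00843% of counts in RFP KO-HFD, against 0.00416%, 0.0709% and 0.00737% in WT-HFD. The value in WT-HFD 2 was mostly Acta1 and Ckm, at 494 and 210 CPM of total. The other markers of this list were at most 2.43 CPM of total there. The part of these markers in the level of Cox6a2 was not tested. Cox4i2, the isoform of lung and of hypoxic cells, made 0.542%, 1.32% and 0.469% of Cox4i1 and Cox4i2 together in RFP KO-HFD, against 0.872%, 0.786% and 0.994% in WT-HFD.

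Cox6b2, the testis isoform, had 0, 10.2 and 2.42 CPM in the RFP KO-HFD libraries, against 2.19, 6.66 and 2.72 CPM in the WT-HFD libraries, and it was highest in the second library of each group. Ndufa4l2, a paralog of Ndufa4 that is induced in hypoxia, had 10% and 7.15% of the sum with Ndufa4 per kilobase in RFP KO-HFD 2 and 3, against 5.76%, 4.04% and 6.62% in WT-HFD, and no count in RFP KO-HFD 1. Its level was 16.7 and 9.80 CPM in RFP KO-HFD 2 and 3, against 8.76, 6.43 and 11.1 CPM in WT-HFD, which overlapped. Ucp1, the uncoupler that marks thermogenic fat, had no count in the 3 RFP KO-HFD libraries, which allows up to 0.616, 0.215 and 0.225 CPM of total, against 1.22, 0.0657 and 1.57 CPM of total in WT-HFD.

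Complex V, ATP synthase, has a catalytic head, a rotor and a stalk that holds them. Of its 17 genes 8 were higher and 9 lower, with a median of -0.032 on the log2 fold scale, and the summed level was 2445, 4123 and 5156 CPM in RFP KO-HFD, against 4182, 4367 and 4559 CPM in WT-HFD. Atp5b, the catalytic beta subunit and the member with the highest mean CPM of complex V, had 489, 1109 and 1307 CPM in the RFP KO-HFD libraries, against 1331, 1265 and 1473 CPM in the WT-HFD libraries (log2 fold change -0.49 ± 0.495 (SE), edgeR adjusted p = 0.927, and -0.18 on the log2 scale without RFP KO-HFD 1). Atp5c1, the gamma subunit that turns in the centre, had 208, 165 and 171 CPM in the RFP KO-HFD libraries, against 176, 139.8 and 178 CPM in the WT-HFD libraries (log2 fold change 0.14 ± 0.322 (SE), edgeR adjusted p = 0.968, and 0.012 on the log2 scale without RFP KO-HFD 1). For Atp5b, 2 of 3 RFP KO-HFD values were below WT-HFD and 1 lay within its range, and Atp5c1 overlapped.

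The c ring, the rotor in the membrane, is made of 1 protein encoded by 3 genes. Atp5g1 had 50.9, 65.9 and 82.3 CPM in the RFP KO-HFD libraries, against 33.5, 73.7 and 32.2 CPM in the WT-HFD libraries, Atp5g2 had 68.5, 172 and 310.2 CPM in the RFP KO-HFD libraries, against 107, 125 and 124 CPM in the WT-HFD libraries, and Atp5g3 had 169, 271 and 371 CPM in the RFP KO-HFD libraries, against 313, 274 and 326 CPM in the WT-HFD libraries. Only for Atp5g2 were RFP KO-HFD 2 and 3 both above WT-HFD, and none of the 3 passed with all libraries (edgeR adjusted p = 0.911, 0.911 and 0.969). In Atp5g1 WT-HFD 2 stood apart, at 73.7 CPM against 33.5 and 32.2 CPM in the other WT-HFD libraries. With RFP KO-HFD 1 and WT-HFD 2 left out it passed (log2 fold change 1.16, edgeR adjusted p = 0.0497), whereas without RFP KO-HFD 1 alone it did not (log2 fold change 0.66, edgeR adjusted p = 0.356).

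Atp5mpl and Atp5pb had the smallest p of the complex in the lower direction. Atp5mpl, a small membrane subunit, had 27.1, 30.2 and 28.5 CPM in the RFP KO-HFD libraries, against 42.9, 42.9 and 43.9 CPM in the WT-HFD libraries, and it was the gene of the complex in which the groups did not overlap (log2 fold change -0.59 ± 0.325 (SE), edgeR adjusted p = 0.811). Leaving out RFP KO-HFD 1, the value was nearly the same (log2 fold change -0.57 ± 0.170 (SE), edgeR adjusted p = 0.136). Atp5pb, the b subunit of the peripheral stalk that holds the head in place, had 116, 107 and 117 CPM in the RFP KO-HFD libraries, against 165, 115 and 152 CPM in the WT-HFD libraries (log2 fold change -0.34 ± 0.319 (SE), edgeR adjusted p = 0.919). Atpif1, the inhibitor of ATP synthase, is not a member by symbol and had 80.5, 87.1 and 50.6 CPM in the RFP KO-HFD libraries, against 86.6, 154 and 76.7 CPM in the WT-HFD libraries (log2 fold change -0.54 ± 0.424 (SE), edgeR adjusted p = 0.898).

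As a share of all counts, the 95 genes took 0.763%, 1.36% and 1.28% in the RFP KO-HFD libraries, against 1.31%, 1.47% and 1.41% in the WT-HFD libraries. RFP KO-HFD 1 was far below the others, and RFP KO-HFD 2 lay within and RFP KO-HFD 3 just under the WT-HFD range. For complexes II and V and the assembly factors, all 3 RFP KO-HFD libraries were under all WT-HFD libraries. Complex V took 0.248%, 0.405% and 0.352% of all counts in RFP KO-HFD, against 0.467%, 0.504% and 0.507% in WT-HFD, and complex II took 0.0401%, 0.0603% and 0.0584% in RFP KO-HFD, against 0.0749%, 0.0685% and 0.0753% in WT-HFD.

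The order changed with the denominator. Protein-coding nuclear genes made 66.8%, 78.3% and 63.3% of counts in RFP KO-HFD, against 90.1%, 91.5% and 90.8% in WT-HFD. As a share of those counts the 95 genes took 1.14%, 1.74% and 2.02% in RFP KO-HFD, against 1.45%, 1.61% and 1.55% in WT-HFD. The ratio of the group means was 0.813 of all counts and 1.06 of protein-coding nuclear counts. Leaving out RFP KO-HFD 1 gave 0.946 and 1.22, and leaving out RFP KO-HFD 3 gave 0.761 and 0.938, so that the direction of the second ratio turned with that library. On the second scale complex IV took 0.234%, 0.405% and 0.469% in RFP KO-HFD, against 0.276%, 0.316% and 0.296% in WT-HFD, and complex V took 0.372%, 0.517% and 0.556%, against 0.518%, 0.551% and 0.558%. RFP KO-HFD 2 and 3 were thus above WT-HFD for complex IV, while for complex V RFP KO-HFD 3 lay within the WT-HFD range and RFP KO-HFD 2 just under it.

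**Figure D4:**
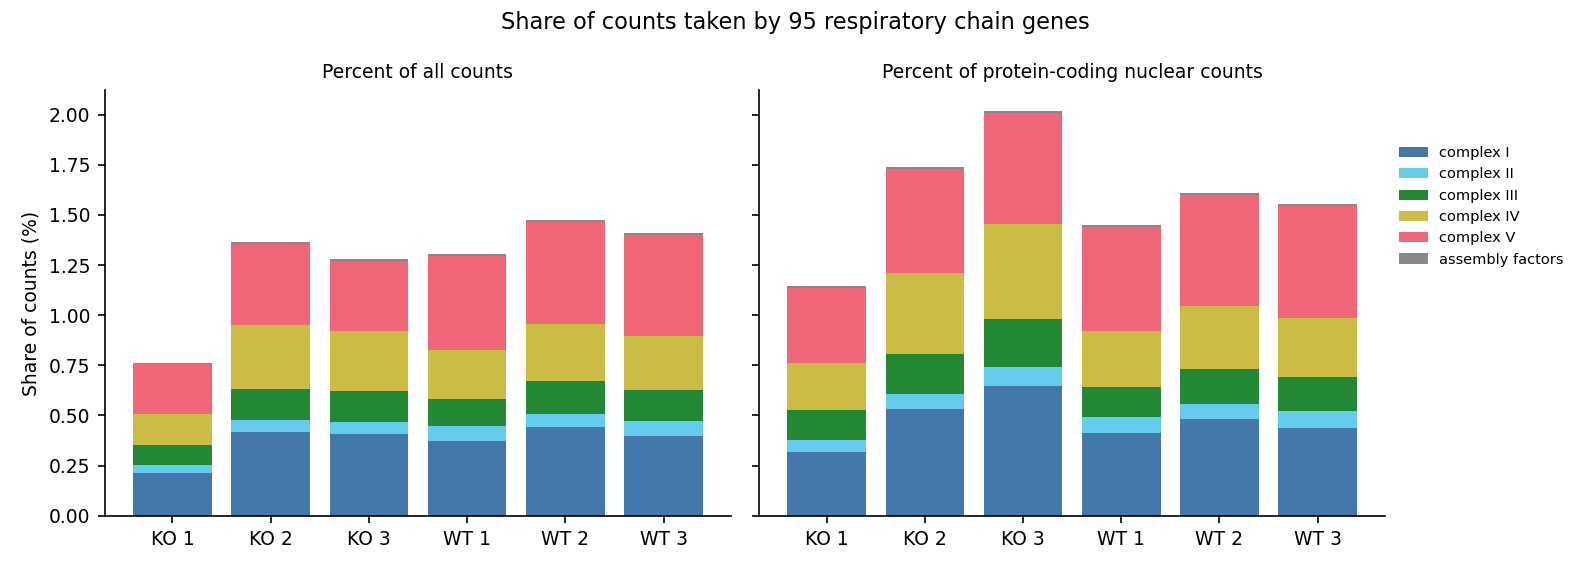
Share of counts (percent, from 0) taken by the 95 genes in each library, RFP KO-HFD 1 to 3 and then WT-HFD 1 to 3, stacked by complex, out of all counts (left) and out of protein-coding nuclear counts (right). RFP KO-HFD 1 is the lowest bar on both sides, at 0.763% and 1.14%, and RFP KO-HFD 3 stands at 1.28% on the left and is the highest on the right, at 2.02%.

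The 13 subunits encoded by mitochondrial DNA stood apart from the nuclear ones. All 13 were higher in RFP KO-HFD, under every scaling tried, 8 of them at an unadjusted p under 0.05 (4.05% of all genes tested) and none after adjustment in the edgeR test, with a median log2 fold change of 2.16. Without RFP KO-HFD 1, the median was 1.38 and 10 of 13 had an unadjusted p under 0.05 (12.1% of all genes tested). Leaving out WT-HFD 2 or WT-HFD 3 instead, all 13 were still higher, with 1 (2.31% of all genes tested) and 2 (1.82%) of them at that p. DESeq2 with all 6 libraries called 5 of the 13 as higher (2.13% of all genes tested). ND4, a proton-pumping subunit of complex I, had 44837, 5714 and 11583 CPM in the RFP KO-HFD libraries, against 3242, 1754 and 2400.3 CPM in the WT-HFD libraries, with no overlap between the groups (log2 fold change 3.07 ± 0.912 (SE), edgeR adjusted p = 0.599). COX1, the catalytic subunit of complex IV, had 14217, 28916 and 40953 CPM in the RFP KO-HFD libraries, against 14978, 8156 and 12622 CPM in the WT-HFD libraries, where RFP KO-HFD 1 lay within the WT-HFD range.

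The counts of mitochondrially encoded subunits over those of the nuclear-encoded subunits of the same complexes (13 and 83 genes of complexes I, III, IV and V) were 28.7, 5.89 and 6.205 in RFP KO-HFD, against 4.49, 2.39 and 3.32 in WT-HFD. All 3 RFP KO-HFD libraries were above all WT-HFD libraries. The order held within each complex. The ratio was 56.2, 3.81 and 5.13 in RFP KO-HFD and 3.23, 1.51 and 2.23 in WT-HFD for complex I, and 10.56, 3.78 and 4.04 in RFP KO-HFD and 3.30, 1.37 and 1.997 in WT-HFD for complex III. For complex IV it was 29.1, 14.97 and 13.7 in RFP KO-HFD and 13.1, 7.46 and 10.4 in WT-HFD, and for complex V 12.3, 1.71 and 2.08 in RFP KO-HFD and 1.27, 0.572 and 0.840 in WT-HFD. The ratio does not depend on the scaling of a library. The gap was narrowest in complex IV, where RFP KO-HFD 3, at 13.7, stood next to WT-HFD 1, at 13.1. No test was made of a ratio over the members, and the part of RNA handling or of other cell types in it was not tested.

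**Figure D5:**
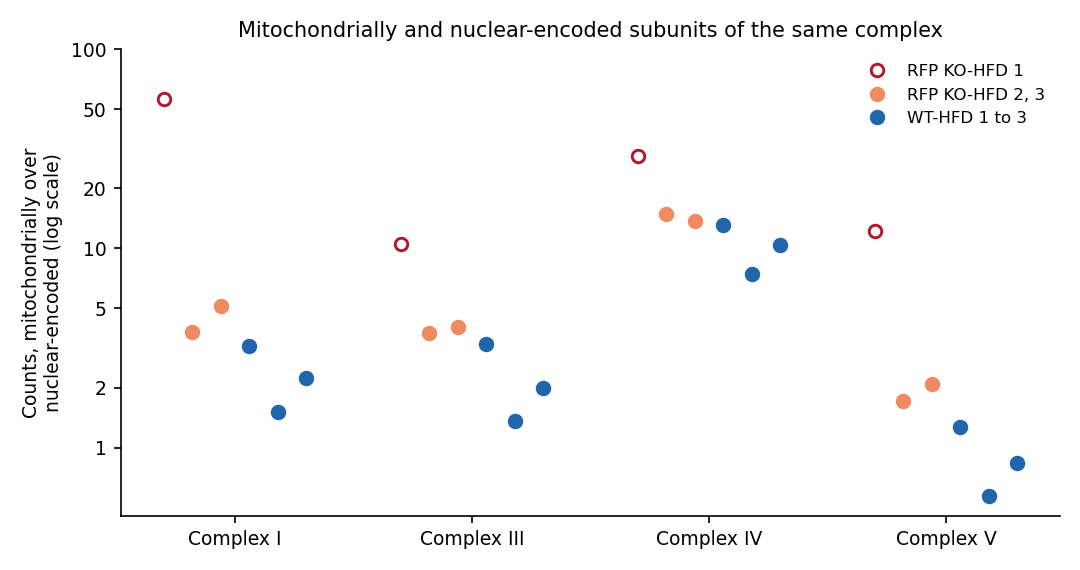
Counts of mitochondrially encoded subunits divided by counts of nuclear-encoded subunits of the same complex (logarithmic vertical axis), for complexes I, III, IV and V, with 1 point per library, RFP KO-HFD left of WT-HFD in each complex. RFP KO-HFD 1 (open) is highest throughout, at 56.2 in complex I, and RFP KO-HFD 2 and 3 stand above all WT-HFD libraries in each complex.

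Other genes of the pathway gave no calls either (0% of all genes tested). Of 42 assembly factors outside the symbol rule, 15 were higher and 27 lower, with 0 of 42 at an unadjusted p under 0.05 in the edgeR test and a median log2 fold change of -0.18. Over all 14706 genes tested, 6464 were higher and 8242 lower, with a median of -0.13. At an unadjusted p under 0.05, 4.05% of them were higher and 2.7% lower. The counts in the lists were not tested against these shares. Of 17 electron carriers and their synthesis genes, 1 was lower at an unadjusted p under 0.05, Etfdh, which passes electrons from fatty acid oxidation to ubiquinone: it had 7.48, 23.4 and 24.2 CPM in the RFP KO-HFD libraries, against 71.9, 25.6 and 64.1 CPM in the WT-HFD libraries (log2 fold change -1.55 ± 0.632 (SE), edgeR adjusted p = 0.724). Of 13 citrate cycle genes 10 were lower, 1 of them at an unadjusted p under 0.05, Suclg1, with 22.6, 56.6 and 43.8 CPM in the RFP KO-HFD libraries, against 97.4, 91.6 and 92.8 CPM in the WT-HFD libraries and no overlap between the groups (log2 fold change -1.19 ± 0.417 (SE), edgeR adjusted p = 0.663). Cycs, cytochrome c itself, had 141, 74.6 and 75.7 CPM in the RFP KO-HFD libraries, against 134, 75.7 and 120.2 CPM in the WT-HFD libraries (log2 fold change -0.18 ± 0.423 (SE), edgeR adjusted p = 0.968).

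The 15 regulators of mitochondrial biogenesis had a median log2 fold change of 0.018, with 8 higher, 7 lower and 0 at an unadjusted p under 0.05 (4.05% higher and 2.7% lower over all genes tested). They include Ppargc1a, the coactivator that drives respiratory genes in many tissues, which had 1.21, 4.24 and 0 CPM in the RFP KO-HFD libraries, against 2.19, 1.82 and 1.20 CPM in the WT-HFD libraries, a low level throughout. Of 9 genes for nucleotide and phosphate exchange, 7 could be tested, with 4 higher, 3 lower and 0 at an unadjusted p under 0.05 (the same shares over all genes apply).

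Most of the missing values were in RFP KO-HFD 1, where 10 of the 95 genes had no count (Cox6a2, Cox6b2, Cox7a1, Cox8b, Ndufa4l2, Ndufaf1, Ndufaf5, Ndufaf6, Ndufaf7 and Ndufb4b). In RFP KO-HFD 3 this held for Cox6a2, and in WT-HFD 2 and 3 for Ndufb4b, a paralog of Ndufb4 that had 0, 4.02 and 2.86 CPM in the RFP KO-HFD libraries, against 1.75, 0 and 0 CPM in the WT-HFD libraries. Whether reads were divided between Ndufb4b and Ndufb4 was not tested. When the other libraries were thinned at random to 4870239 counts, the depth of RFP KO-HFD 1, the number of members with no count was unchanged in each of them. RFP KO-HFD 1 lacked a count for 12.3% of the 6634 genes that reached 10 CPM of total in all 5 other libraries. It lacked a count for 0 of the 80 respiratory chain genes among them. These 80 were not matched to the other genes for level above that minimum.

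Promoters were examined for motifs because NRF1 and GABPA (also called NRF2) are textbook activators of respiratory chain genes. RefSeq promoter windows (GRCm38.p6, 250 bases before to 50 after the start) matched 77 of the 95 genes. The NRF1 motif GCGCNTGCGC, on either strand, was in 18 of 77 windows, or 23.4% (95% exact interval 14.5% to 34.4%), against 6.98% of 16161 protein-coding genes. The GABPA motif CCGGAAG was in 18 of 77 windows, 23.4%, against 12.6%. The comparison genes were not matched to the members for expression or for promoter G+C, and the part of either in these shares was not tested. The stretches of 3 members show where the NRF1 motif lies (in capitals); they read 5′ to 3′ on the strand of the gene.
Cox6a1: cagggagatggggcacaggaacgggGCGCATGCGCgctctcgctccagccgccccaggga
Sdhd: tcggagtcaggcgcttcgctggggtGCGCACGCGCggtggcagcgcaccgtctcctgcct
Atp5g2: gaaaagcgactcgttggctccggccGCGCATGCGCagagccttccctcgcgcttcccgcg

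The Cox6a1 stretch is chr5:115349086-115349145, the Sdhd stretch chr9:50603894-50603953 and the Atp5g2 stretch chr15:102671055-102671114, all on the minus strand. The first base of the motif lies 162, 79 and 42 bases before the start. Members with and without the NRF1 motif had median log2 fold changes of -0.015 (18 genes) and 0.14 (59 genes), and without RFP KO-HFD 1 of 0.21 and 0.25. For the GABPA motif the medians were 0.22 (18 genes) and 0.041 (59 genes), and without RFP KO-HFD 1 they were 0.38 and 0.14. A match is a string of letters and no measure of binding.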

How the data were processed

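RNA was sequenced from 6 libraries labelled as eWAT of 3 RFP KO-HFD and 3 WT-HFD mice. Per the labels and the study's methods, Trizol was used to extract RNA, the CORALL V2 kit to make libraries after poly(A) selection (the labels also name removal of ribosomal RNA), STAR to align trimmed reads and Salmon to quantify genes. Versions are not given in the sources used here. The submitters' processing notes name Trimmomatic and mm10, whereas the methods name another trimmer and the sheet deposited with the table names GRCm39. The authors deposited a whole-number count per gene and library, together with normalised values, folds and p-values of their own comparison, which were not used. Total counts were 4870239 to 17215047 per library, and floors cover counting error only. The exact interval given for a promoter motif is a binomial one over genes.

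Genes were kept by filterByExpr (min.count 10, min.total.count 15) and tested with the two-sided quasi-likelihood test of edgeR 4.0.16 in R 4.3.3 after TMM normalisation, on genotype alone, with Benjamini-Hochberg adjustment over 14706 genes. The p-values measure the spread between 3 mice a group. Log2 CPM used a prior count of 0.5. The alternatives were DESeq2 1.42.0, voom of limma 3.58.1 (alone or with quality weights), other scalings and filters, a replicate block and leaving out libraries.

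The members, lists and alternatives were chosen with earlier results of these data known. Genes were named when they encode a defining subunit, a tissue isoform or the inhibitor of ATP synthase, when they had one of the 2 smallest p in a direction or the highest mean CPM within a complex, or when they had no count in a library (up to 10). Other genes were chosen after their values were seen. The results of 1 named member are not reported here. Lists of other pathway genes held 13 mitochondrial symbols, which were changed to those of the table. Coding sequences are from GENCODE M21 (90 of 95 members and 13286 genes tested) and promoters from RefSeq, with 1 window per gene.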

Additional observations from a re-analysis of the deposited data

How the results depend on the processing

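The direction of the members as a whole depended on the scaling and on single libraries, and no setting with all 6 libraries at equal weight called a member. The median log2 fold change of the 95 genes was 0.11, and it was 0.13 with DESeq2, 0.13 with RLE factors, 0.18 with upper-quartile factors, 0.14 over protein-coding nuclear genes only, 0.12 with 10 counts required in every library and 0.036 with no filter, against -0.10 with limma-voom and -0.30 with library totals only. Leaving out 1 library at a time gave -0.22 to 0.25. For complex V the median was -0.42 with library totals only and -0.39 to 0.062 with 1 library left out. The ratio of the members' share of counts was 1.06 of protein-coding nuclear counts (0.938 without RFP KO-HFD 3), against 0.813 of all counts. The count of members at an adjusted p under 0.05 was 7 higher and 1 lower with limma-voom and quality weights, and 2 higher without RFP KO-HFD 1 and WT-HFD 2. At an unadjusted p under 0.05 these settings gave 28 higher and 10 lower (12.7% and 15.3% of all genes), and 25 higher and 9 lower (14.7% and 17%), and DESeq2 and limma-voom gave 2 lower each. Leaving out 1 library gave 0 to 22 higher and 0 to 7 lower, the largest of these without RFP KO-HFD 1. Among named genes, Atp5g2 ranged from -0.012 (without RFP KO-HFD 3) to 1.01 with 1 library left out, Ndufaf4 was at -0.036 with quality weights and -0.066 without RFP KO-HFD 1 and WT-HFD 2, and the log2 fold change of Sdhb was -0.0065 with library totals only. With the replicate number as a block, 0 members were called, their median was -0.12 and 393 genes had an unadjusted p under 0.05, against 992. Libraries of the same number correlated at 0.024, 0.0070 and 0.028 in their deviations from the group means, so the numbers were not taken as pairs. Except where a value is given for it, the cause of a change was not tested. Depth limits RFP KO-HFD 1 most, where 3 counts are 0.616 CPM of total.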
